A study of Homo sapiens with 24 samples.

Results

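The genes described here are those of glycolysis and of the hypoxia-inducible factor HIF1α, a set of 40 genes chosen by name as the known SIRT6-HIF1α programme and hypoxia genes. Of these, 38 had a probe set of their own on the arrays, out of 19775 such genes, and the remaining 2 genes, SLC16A3 and CA9, were not analysed here. The 38 genes were read by 90 probe sets, and 27 of them by several. Each gene is given by the probe set with the highest mean over the arrays. All 4 probe sets of VEGFA are shown by array, and are described in the text where H133W and empty vector cells are compared. In the other comparisons the VEGFA values are those of its main probe set, the one of highest mean.

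HEK293 cells, a line of human embryonic kidney origin, were transfected for 24 h with the expression plasmid pCDNA3 carrying Flag-tagged H133W mutant SIRT6, with the same plasmid carrying Flag-tagged wild type SIRT6 or with pCDNA3 alone (empty vector), or received no DNA (untransfected). Each of the 4 kinds of cell was then given TNFα at 10 ng/ml, or PBS with BSA in its place, which makes 8 conditions of 3 biological replicates and 24 Affymetrix arrays. The H133W mutant was used as a deacetylase-dead form of the enzyme. The transfections were transient and reached only part of the cells, so that each array averages over cells with and without the plasmid, and fewer responding cells cannot be told apart from a smaller change per cell. The methods give 4 h of TNFα and the design text of the series 1 h.

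Glycolysis breaks glucose down to pyruvate, which is either reduced to lactate or passed to the mitochondria by pyruvate dehydrogenase, an enzyme that the PDK kinases switch off. When oxygen is low, HIF1α escapes hydroxylation by the EGLN enzymes, pairs with ARNT and binds hypoxia response elements in the promoters of glucose transporters, glycolytic enzymes, PDK1, LDHA and VEGFA. SIRT6 is a NAD-dependent deacetylase of histone H3, and in mouse cells without it HIF1α target genes of glucose uptake and glycolysis are raised. The comparisons therefore ask whether more SIRT6, or the H133W form, moves these genes, and whether TNFα does.

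The core of a hypoxia response element, ACGTG or GCGTG, was searched for on both strands in the 250 bases before each gene's RefSeq start (GRCh38.p14). The palindrome CACGTG holds the core on both strands and counts as 2 overlapping matches. The table held promoters of 34 of the 38 genes, and 28 of these genes (82.4%) had at least 1 core in at least 1 promoter, against 47.4% of all genes in the table. The genes have up to 7 promoters each in the table, and over single promoters the shares were 57.4% and 43.2%. Of the 9 genes that passed the test in any comparison below, 7 have a promoter in the table, 5 of them with a core. VEGFA and NDRG1 have no entry. A match says only that these letters are there. Printed below are 4 of these promoters, each 5′ to 3′ on the gene's strand with the cores in capitals: ALDOC and ANKRD37, which hold 5 and 3 cores and of which each passed a test below, and EGLN3 and PDK4, which fell with TNFα in the most kinds of cell and hold none in these windows.
ALDOC, chr17:28576896-28577145, minus strand: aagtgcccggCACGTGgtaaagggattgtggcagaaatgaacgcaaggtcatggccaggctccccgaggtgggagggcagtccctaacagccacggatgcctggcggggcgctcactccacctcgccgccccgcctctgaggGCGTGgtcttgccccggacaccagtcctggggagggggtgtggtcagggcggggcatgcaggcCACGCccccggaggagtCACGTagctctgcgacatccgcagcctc
ANKRD37, chr4:185396591-185396840, plus strand: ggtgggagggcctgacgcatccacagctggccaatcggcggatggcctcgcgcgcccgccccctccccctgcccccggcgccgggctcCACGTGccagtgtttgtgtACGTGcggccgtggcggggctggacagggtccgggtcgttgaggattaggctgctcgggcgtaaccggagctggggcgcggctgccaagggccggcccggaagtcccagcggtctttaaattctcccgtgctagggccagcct
EGLN3, chr14:33951075-33951324, minus strand: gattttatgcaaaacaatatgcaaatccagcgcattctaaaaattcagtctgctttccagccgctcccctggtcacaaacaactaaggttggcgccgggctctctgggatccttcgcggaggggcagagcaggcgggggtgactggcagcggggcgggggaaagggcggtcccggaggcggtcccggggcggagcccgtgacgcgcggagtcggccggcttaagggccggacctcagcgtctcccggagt
PDK4, chr7:95596517-95596766, minus strand: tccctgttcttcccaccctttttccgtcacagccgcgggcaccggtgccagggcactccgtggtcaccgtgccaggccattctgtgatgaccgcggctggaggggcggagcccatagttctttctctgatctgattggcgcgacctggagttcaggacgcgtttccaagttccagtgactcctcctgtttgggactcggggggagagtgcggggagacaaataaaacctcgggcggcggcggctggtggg

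All values are log2 expression from robust multi-array averaging (RMA), and all changes are differences of log2 values, so that 1 is a doubling. None of the 38 genes had a mean below 5, where 35.3% of all genes lie. Over all 24 arrays 18 of the 38 genes varied by less than 0.5 between the lowest and the highest array, among them GAPDH (13.02 to 13.10), LDHB (12.97 to 13.09), LDHA (12.67 to 12.98), PDK1 (10.68 to 10.98) and HIF1A (11.40 to 11.74). Only 7 varied by more than 1, namely ENO2, VEGFA, EPAS1, PKLR, EGLN3, ALDOC and KDM3A. KDM3A and ENO2 had their highest value (10.92 and 10.58) and EPAS1 its lowest (6.22) on H133W + TNFα replicate 3. That array had the widest β-actin difference, given below. The next values were 9.62, 10.16 and 6.95, so that without that array these genes did not vary by more than 1. Levels of different genes are read by different probes and are not compared.

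Of 9 marker genes of HEK293 cells 6 had a median over 7, with NEFL at 12.34, whereas PAX2 had a median of 4.98; all 6 blood and all 5 endothelial markers had a median under 5, as did 5 of 7 fibroblast markers. The difference between the 3′ and 5′ control probe sets of β-actin, which is large in degraded RNA, was widest on H133W + TNFα replicate 3 (3.03), then on empty vector replicate 2 (2.05), and 1.33 to 1.79 elsewhere. The array weight was lowest on H133W + TNFα replicate 3 (0.0844). SIRT6 was read by 2 probe sets. The first differed from empty vector by 1.15 in H133W cells (adjusted p = 0.0357) and 0.75 in SIRT6 cells (adjusted p = 0.749), and with TNFα by 0.80 (adjusted p = 0.12) and 0.59 (adjusted p = 0.781). The second gave 0.08 in H133W cells (adjusted p = 0.775) and 0.07 in SIRT6 cells, and with TNFα 0.48 (adjusted p = 0.00733) and 0.15 (adjusted p = 0.915). The sources used here do not say whether they read the part that the plasmids carry. At the protein level, the study reports that both SIRT6 and H133W were seen on Western blots of extracts of the transfected cells.

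H133W cells differed from empty vector cells in 1 enzyme of the pathway that was lower and in 1 that was higher. Of 38 genes, PKLR was higher and ALDOC lower at an adjusted p under 0.05 with a fold change over 1.5, where 0.865% of all genes passed. At any fold 3 of 38 passed, VEGFA being the further one, where 3.79% of all genes did. The median change of the 38 genes was −0.06, a difference of −0.03 from the median of all genes, and 27 of 38 (71.1%) lay below 0, as did 60.3% of all genes.

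ALDOC encodes aldolase C, a form of the enzyme that splits fructose 1,6-bisphosphate and that is typical of brain. Its log2 values were 7.73, 7.52 and 7.60 in H133W cells and 8.13, 8.29 and 8.35 in empty vector cells. Every H133W array lay below every empty vector array, by −0.64 on average (SE 0.13, 95% interval −0.92 to −0.37, adjusted p = 0.00828 by limma over all probe sets). The fall passed in each of the 6 fits that left out 1 array of the comparison. With TNFα the values were 7.50, 7.02 and 7.72 in H133W cells and 7.81, 7.64 and 8.09 in empty vector cells, which overlapped, and the difference of −0.44 did not pass (adjusted p = 0.0576). Without H133W + TNFα replicate 3 it was −0.59 and passed (adjusted p = 0.0102). SIRT6 cells had 8.35, 8.27 and 8.12, which overlapped the empty vector arrays.

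PKLR encodes the liver and red cell form of pyruvate kinase, which makes pyruvate in the last step of glycolysis. The H133W arrays read 9.14, 9.30 and 9.37 and the empty vector arrays 8.46, 8.81 and 8.78, a difference of 0.59 (SE 0.11, adjusted p = 0.00272) with no overlap. With TNFα they read 9.20, 9.29 and 9.36 in H133W cells and 8.54, 8.75 and 8.76 in empty vector cells, a difference of 0.60 (adjusted p = 0.0016). Both values lie just over the fold threshold, and PKLR lost the call, though not the adjusted p, when either H133W replicate 2 or H133W replicate 3 was left out, or empty vector replicate 1 (with TNFα, H133W + TNFα replicate 3 or empty vector + TNFα replicate 1). The 2 further probe sets of PKLR did not move with it, since they differed by −0.13 and −0.00 without TNFα (adjusted p = 0.762 and 0.995) and by 0.13 and 0.16 with it (adjusted p = 0.71 and 0.465).

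The other 16 glycolytic enzymes did not pass in H133W against empty vector cells with or without TNFα. Without TNFα the largest of these differences were those of PFKL and PFKP, forms of phosphofructokinase, at −0.25 each (adjusted p = 0.263 and 0.291), and at −0.16 and −0.15 without empty vector replicate 2. With TNFα ENO2, the neuronal enolase, had the largest, at 0.36 (adjusted p = 0.105), which was 0.14 without H133W + TNFα replicate 3. Of the 18 enzymes 16 lay below 0 without TNFα and 11 with it, and their medians were −0.07 and −0.03. These medians differed from those of all genes by −0.04 without TNFα and −0.04 with it. The count and median with TNFα include H133W + TNFα replicate 3 and were not taken again without that array. The glucose transporters did not pass either: SLC2A1 differed by 0.03 and −0.00 and SLC2A3 by 0.11 and −0.26 (−0.09 without H133W + TNFα replicate 3). PFKFB4, which makes and removes the phosphofructokinase activator fructose 2,6-bisphosphate, differed by −0.27 and 0.17 (adjusted p = 0.485 and 0.628), and its relative PFKFB3 by 0.08 at both. Without empty vector replicate 2 the PFKFB4 difference was −0.13, and without H133W + TNFα replicate 3 the one with TNFα turned to −0.09. Of the PDK kinases the largest differences without TNFα were those of PDK2 (−0.32) and PDK3 (−0.23), with adjusted p = 0.275 and 0.148, and that of PDK2 was −0.14 without empty vector replicate 2. With TNFα PDK3 differed by −0.18 (adjusted p = 0.196), and by −0.29 without H133W + TNFα replicate 3 (adjusted p = 0.02).

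HK2, hexokinase 2, which phosphorylates glucose on entry, gave different readings by probe set. Its main probe set differed by −0.01 in H133W against empty vector cells and by 0.04 with TNFα (adjusted p = 0.957 and 0.774). A second probe set, 222305_at, read 7.37, 7.27 and 7.21 in H133W cells and 7.70, 8.19 and 7.57 in empty vector cells, a fall of −0.54 (adjusted p = 0.0274) without overlap, which did not pass without empty vector replicate 2 (−0.35, adjusted p = 0.161). With TNFα it read 6.77, 6.82 and 6.84 in H133W cells and 7.40, 7.40 and 7.52 in empty vector cells, a fall of −0.63 (adjusted p = 0.00677). Another, 239410_at, read 4.15, 4.08 and 4.02 in H133W cells with TNFα and 4.81, 4.73 and 4.94 in empty vector cells with TNFα (−0.74, adjusted p = 0.0016), also without overlap. Both lay lower in SIRT6 than in empty vector cells with TNFα as well, without overlap, by −0.52 and −0.41, and did not pass (adjusted p = 0.206 and 0.382). The files do not say which transcripts these probe sets read.

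**Figure D1:**
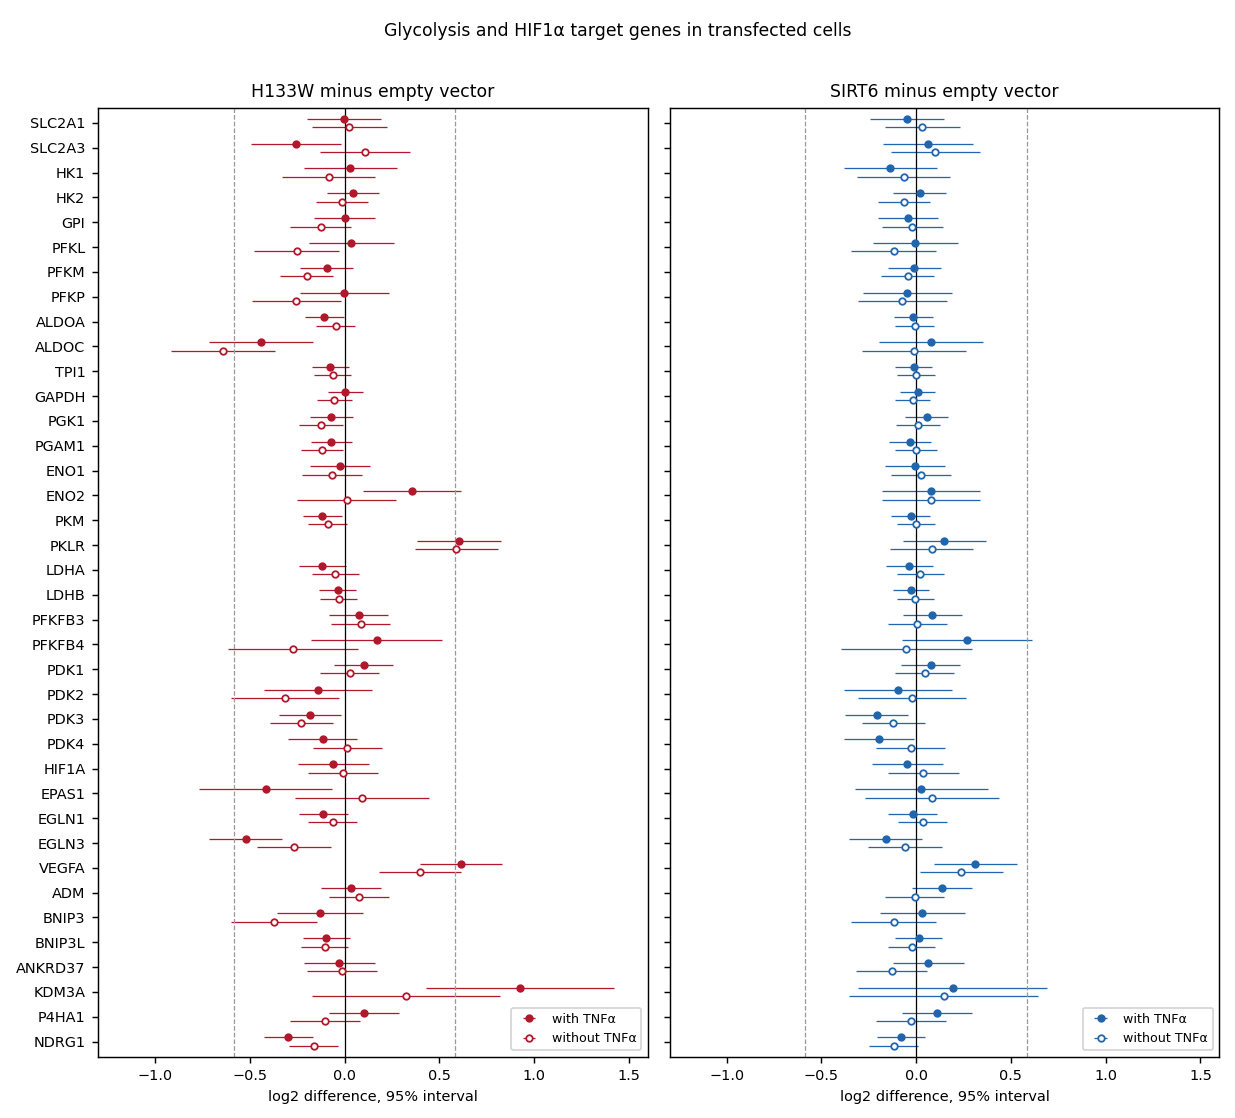
Difference in log2 expression of each of the 38 genes between H133W and empty vector cells (left) and between SIRT6 and empty vector cells (right), with TNFα (filled) and without (open); points are differences of means of 3 arrays, bars 95% intervals of the limma fit, and dashed lines the 1.5-fold threshold. ALDOC, PKLR, VEGFA, KDM3A and EGLN3 lie farthest from 0 on the left, and on the right the genes lie between −0.21 and 0.31.

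VEGFA, the angiogenic growth factor and a classical HIF1α target, was higher in H133W cells by all of its 4 probe sets. The main one, 210512_s_at, read 10.58, 10.54 and 10.50 in H133W cells and 10.26, 10.04 and 10.13 in empty vector cells, a difference of 0.40 (SE 0.10, adjusted p = 0.0418). Every H133W array lay above every empty vector array, but the difference passed in only 1 of 6 fits that each left out 1 of these arrays. The 3 further probe sets differed by 0.67, 0.64 and 0.61 (adjusted p = 0.0297, 0.00104 and 0.0221). Without empty vector replicate 2 these were 0.54, 0.62 and 0.44 (adjusted p = 0.164, 0.00642 and 0.14).

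With TNFα the main VEGFA probe set read 10.69, 10.64 and 10.59 in H133W cells and 10.09, 9.96 and 10.04 in empty vector cells, a difference of 0.61 (SE 0.10, adjusted p = 0.00131) that passed without any single array. The further probe sets differed by 0.17, 0.27 and 0.34 and did not pass (adjusted p = 0.619, 0.133 and 0.189). On these, H133W + TNFα replicate 3, the array with the β-actin difference of 3.03, stood apart from its replicates. Probe set 212171_x_at read 9.05, 8.98 and 8.14 in H133W cells with TNFα and 8.54, 8.50 and 8.62 in empty vector cells with TNFα. Without replicate 3 the differences were 0.47, 0.42 and 0.52 (adjusted p = 0.0271, 0.0104 and 0.0319), whereas that of the main probe set was 0.64 (adjusted p = 0.00315).

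**Figure D2:**
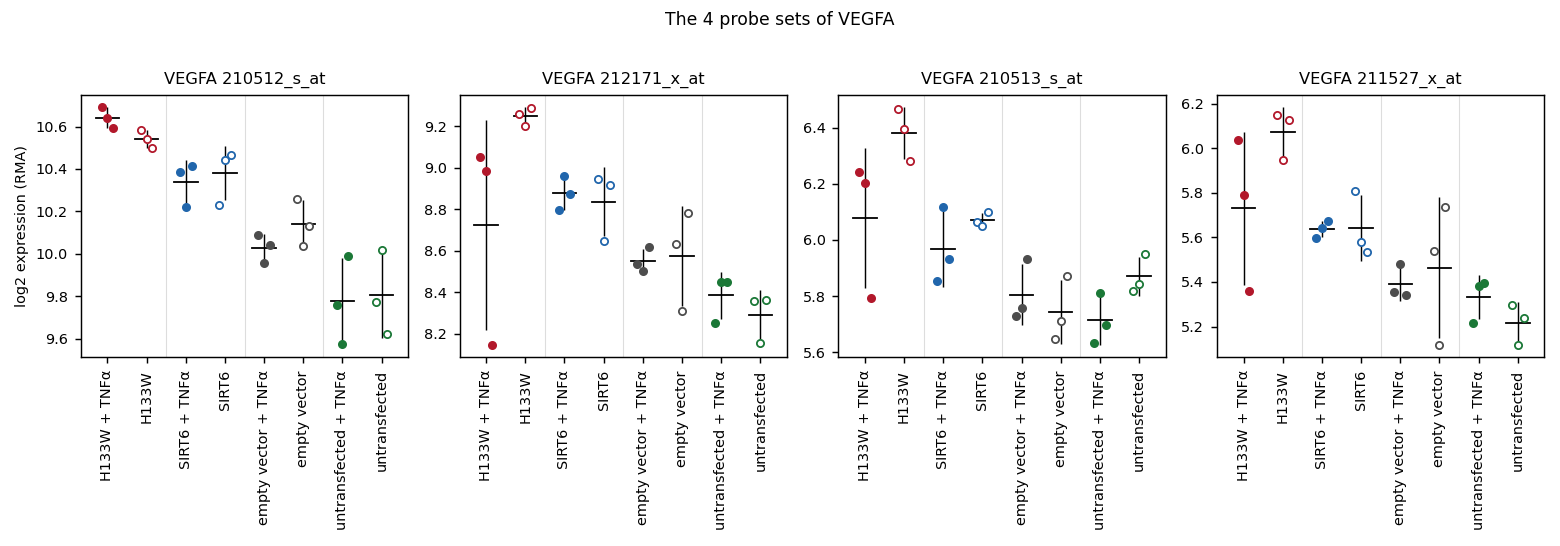
Log2 expression of VEGFA on each array by its 4 probe sets, which are not comparable in level; points are arrays (filled with TNFα, open without), horizontal lines means and vertical lines SDs of 3 arrays. In H133W cells with TNFα, replicate 3 lies beside its replicates on the first probe set only, at 10.59, and reads 8.14 on the second.

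With TNFα, 3 of 38 genes were higher in H133W than in empty vector cells by over 1.5-fold (PKLR, VEGFA and KDM3A) and none was lower, where 1.72% of all genes passed. At any fold 5 of 38 passed, with EGLN3 and NDRG1 lower, against 6.91% of all genes. Without H133W + TNFα replicate 3 the calls over 1.5-fold were VEGFA, higher, and ALDOC, lower. KDM3A encodes a histone H3 demethylase that hypoxia induces. It read 9.54, 9.43 and 10.92 in H133W cells and 8.988, 9.004 and 9.121 in empty vector cells. The size of the difference, 0.93 (SE 0.24, adjusted p = 0.0273), rests on replicate 3. Without that array the difference was 0.45 (adjusted p = 0.0259), under 1.5-fold. It did not pass without any 1 of the 3 empty vector + TNFα arrays. Another KDM3A probe set, 242758_x_at, with a mean of 2.42, differed by −0.26 (adjusted p = 0.349).

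EGLN3, a prolyl hydroxylase that marks HIF1α for destruction and is itself a HIF target, read 7.54, 7.15 and 7.31 in H133W cells with TNFα and 7.996, 7.718 and 7.851 in empty vector cells with TNFα. The fall of −0.52 (SE 0.09, adjusted p = 0.00185) left no overlap and passed without any single array. A second EGLN3 probe set differed by −0.28 and did not pass (adjusted p = 0.093). NDRG1, a gene induced by hypoxia and differentiation, read 11.57, 11.49 and 11.52 in H133W cells with TNFα and 11.80, 11.76 and 11.90 in empty vector cells with TNFα, a fall of −0.30 (adjusted p = 0.00677) without overlap. EPAS1, which encodes HIF2α, differed by −0.42 (adjusted p = 0.165), and by −0.15 without replicate 3. HIF1A itself differed by −0.06 (95% interval −0.25 to 0.13). BNIP3, a mitochondrial protein of mitophagy, differed by −0.37 without TNFα (adjusted p = 0.0703) and by −0.13 with it. With TNFα its H133W arrays read 10.30, 10.09 and 10.59, replicate 3 being the highest. Another BNIP3 probe set passed with TNFα and is given in the closing section.

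None of the 38 genes passed between wild type SIRT6 and empty vector cells. Without TNFα 0 of 38 passed (1 of 38 at an unadjusted p under 0.05), where 0.0506% of all genes passed with the fold threshold and 0.101% at any fold. With TNFα 0 of 38 passed (3 at an unadjusted p under 0.05), against 0.101% and 0.212% of all genes. The largest difference at both was that of VEGFA, at 0.24 (95% interval 0.02 to 0.46, adjusted p = 0.852) and 0.31 (0.09 to 0.53, adjusted p = 0.449). VEGFA read 10.23, 10.44 and 10.47 in SIRT6 cells, and 10.39, 10.22 and 10.41 in SIRT6 cells with TNFα; only with TNFα did all arrays lie above those of empty vector cells.

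The genes best known as repressed by SIRT6 lay close to the control, and are named here for that reason after their values were seen. LDHA, which turns pyruvate to lactate, read 12.88, 12.95 and 12.86 in SIRT6 cells and 12.93, 12.84 and 12.86 in empty vector cells, a difference of 0.02 (95% interval −0.10 to 0.14). PDK1 differed by 0.05 (−0.11 to 0.20) and SLC2A1, the main glucose transporter of most cells, by 0.03 (−0.16 to 0.23). With TNFα they differed by −0.04, 0.08 and −0.05. For 37 of the 38 genes without TNFα and 36 with it the 95% interval lay within 1.5-fold in either direction, the exceptions being KDM3A at both and PFKFB4 with TNFα. These intervals are not adjusted for the number of probe sets, whereas a pass needed an adjusted p under 0.05. A difference whose interval left out 0, such as those of VEGFA, could therefore still fail to pass. Small differences could be missed with 3 arrays per condition.

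H133W and SIRT6 cells were also compared directly. Without TNFα ALDOC was lower in H133W cells by −0.63 (SE 0.13, adjusted p = 0.0341), 1 of 38 genes, where 0.167% of all genes passed. At any fold PKLR passed as well, higher by 0.51 (adjusted p = 0.0337), 2 of 38 against 0.622% of all genes. With TNFα 0 of 38 passed with the fold threshold (10 at an unadjusted p under 0.05), against 0.415% of all genes, and at any fold only PKLR did, at 0.45 (adjusted p = 0.0396), against 1.55%. The ALDOC call was lost without any 1 of the 6 arrays, and both PKLR calls without 5 of 6. VEGFA differed by 0.16 and 0.30 between H133W and SIRT6 cells and did not pass (adjusted p = 0.75 and 0.166).

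**Figure D3:**
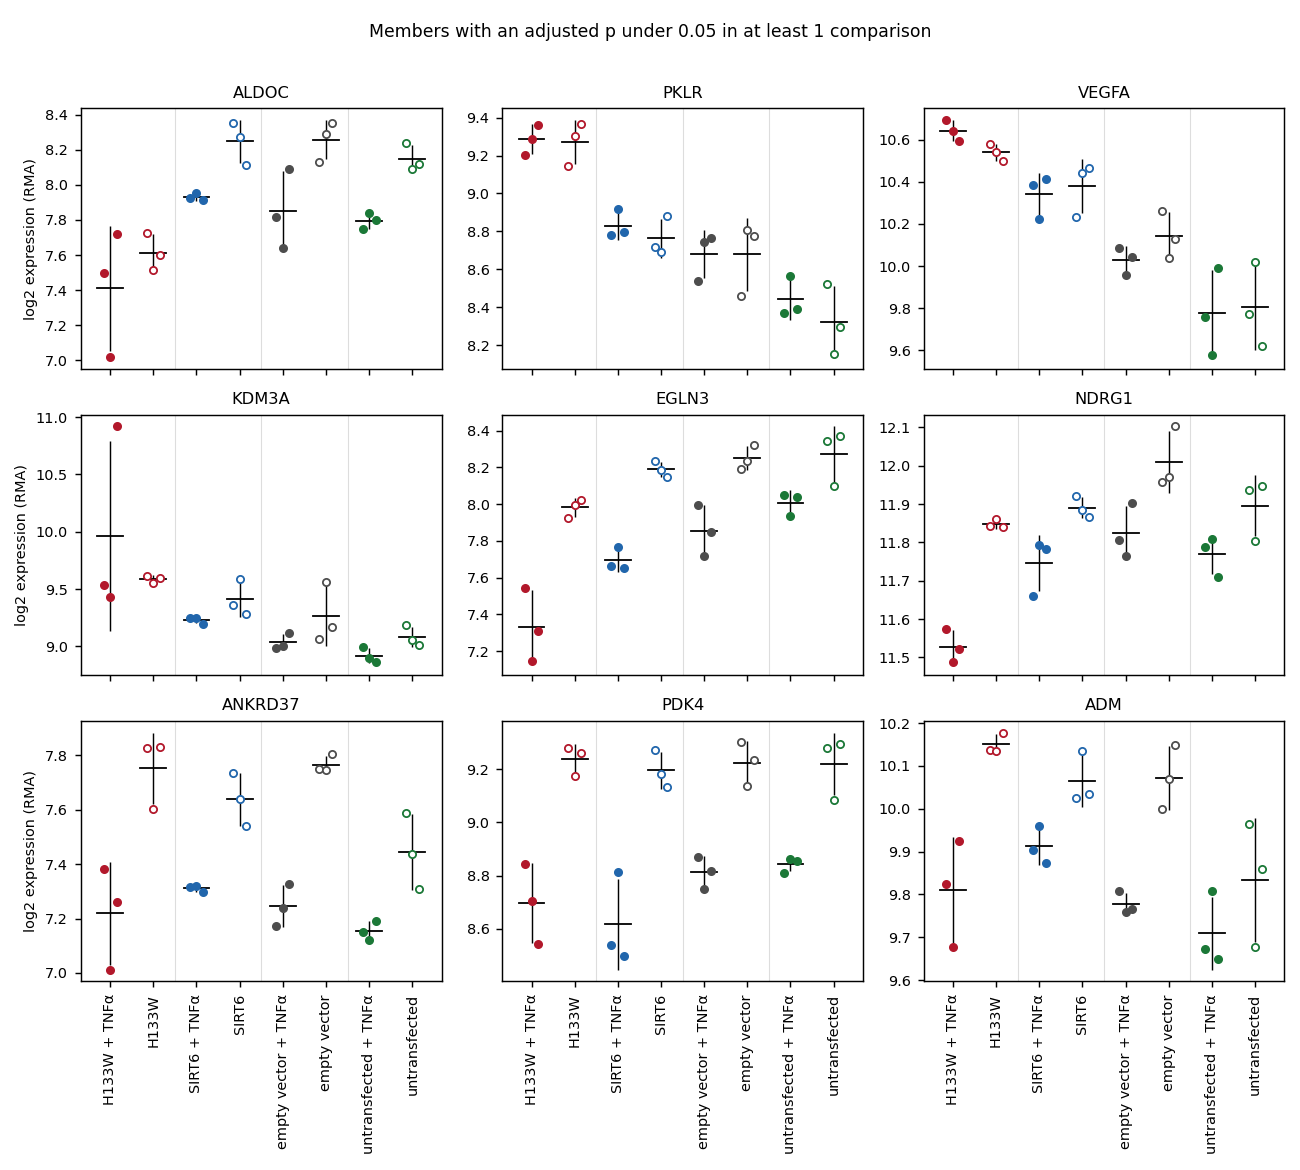
Log2 expression on each array of the 9 genes that passed an adjusted p of 0.05 in any comparison, by condition; points are arrays (filled with TNFα, open without), horizontal lines means and vertical lines SDs of 3 arrays, and each panel has its own scale. H133W cells stand apart in PKLR, and without TNFα in ALDOC, PDK4 is lower in every condition with TNFα, and a single array of H133W cells with TNFα lies at 10.92 for KDM3A.

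A few of the genes fell with TNFα and none rose past the test. The kinase PDK4 fell in all 4 kinds of cell, EGLN3 in 3 and ANKRD37 and ADM in 2 each, mostly by less than 1.5-fold. At an adjusted p under 0.05 and any fold, 5 of 38 genes fell in H133W cells (4.26% of all genes passed in either direction), 2 in SIRT6 cells (3.18%), 4 in empty vector cells (2.98%) and 1 in untransfected cells (2.46%). With the fold threshold only EGLN3 in H133W cells passed, 1 of 38 where 1.42% of all genes did, and 0 of 38 in SIRT6, empty vector and untransfected cells (7, 10 and 10 at an unadjusted p under 0.05), where 1.28%, 1.25% and 1.18% did. Below 0 lay 22 of the 38 genes in H133W, 30 in SIRT6, 30 in empty vector and 32 in untransfected cells (57.9%, 78.9%, 78.9% and 84.2%), where 46.9%, 59.3%, 63.1% and 59.2% of all genes did. The medians of the 38 genes were −0.02, −0.07, −0.09 and −0.06, and those of all genes 0.01, −0.03, −0.04 and −0.02. The H133W count and median include H133W + TNFα replicate 3, the array with the β-actin difference of 3.03. They were not taken again without it, so they do not show whether fewer of the 38 genes fell in H133W cells.

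PDK4 switches pyruvate dehydrogenase off in fasting and when fat is burned. It read 8.84, 8.71 and 8.54 in H133W cells with TNFα and 9.28, 9.18 and 9.26 without (−0.54, adjusted p = 0.000902). SIRT6 cells read 8.54, 8.81 and 8.50 with TNFα and 9.27, 9.18 and 9.13 without (−0.58, adjusted p = 0.000458). Empty vector cells read 8.87, 8.75 and 8.82 with TNFα and 9.30, 9.14 and 9.24 without (−0.41, adjusted p = 0.012). Untransfected cells gave −0.38 (adjusted p = 0.0267), with 8.81, 8.86 and 8.86 against 9.28, 9.08 and 9.29. In none of the 4 did arrays with and without TNFα overlap, but the falls in empty vector and untransfected cells did not pass without 3 and 5 of their 6 arrays left out singly. A second PDK4 probe set gave −0.12, −0.31, −0.04 and −0.05 in H133W, SIRT6, empty vector and untransfected cells and did not pass in any (adjusted p = 0.647, 0.317, 0.932 and 0.998).

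EGLN3 read 7.54, 7.15 and 7.31 in H133W cells with TNFα and 7.924, 7.997 and 8.024 without, a fall of −0.65 (SE 0.09, adjusted p = 0.000242). In SIRT6 cells it read 7.66, 7.77 and 7.65 with TNFα and 8.23, 8.19 and 8.15 without (−0.50, adjusted p = 0.00381). The falls were −0.39 in empty vector cells (adjusted p = 0.0271, lost without 4 of the 6 arrays in turn) and −0.26 in untransfected cells (adjusted p = 0.266). Arrays with and without TNFα overlapped in none of the 4. The second EGLN3 probe set gave −0.41, −0.40 and −0.37 in H133W, SIRT6 and empty vector cells (adjusted p = 0.0216, 0.0297 and 0.0458). EGLN1, the main oxygen sensor of the family, differed by −0.11 to −0.17 and did not pass in any.

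ANKRD37, a small ankyrin repeat protein induced by HIF1α, read 7.38, 7.01 and 7.26 in H133W cells with TNFα and 7.83, 7.60 and 7.83 without (−0.53, adjusted p = 0.0013). In empty vector cells it read 7.17, 7.24 and 7.33 with TNFα and 7.75, 7.75 and 7.80 without (−0.52, adjusted p = 0.00185). Neither pair of groups overlapped, and SIRT6 and untransfected cells gave −0.33 and −0.29 (adjusted p = 0.0675 and 0.156). A second ANKRD37 probe set gave 0.04 and −0.12 in H133W and empty vector cells (adjusted p = 0.913 and 0.812). ADM, the vasodilator peptide adrenomedullin, fell by −0.34 in H133W cells (9.83, 9.68 and 9.93 against 10.14, 10.14 and 10.18, adjusted p = 0.0147) and by −0.30 in empty vector cells (9.81, 9.76 and 9.76 against 10.00, 10.07 and 10.15, adjusted p = 0.0471). The ADM calls were lost without 4 and 6 of the 6 arrays in turn. NDRG1 fell in H133W cells by −0.32 (adjusted p = 0.00465), with 11.57, 11.49 and 11.52 against 11.84, 11.86 and 11.84.

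SLC2A1 lay lower with TNFα in each kind of cell without overlap, by −0.30 in H133W, −0.36 in SIRT6, −0.28 in empty vector and −0.33 in untransfected cells, but did not pass in any (adjusted p = 0.0843, 0.0514, 0.18 and 0.0979). ALDOC gave −0.20, −0.32, −0.41 and −0.35 in the same order and did not pass. Its H133W value includes H133W + TNFα replicate 3, which read 7.72 where the other replicates read 7.50 and 7.02. HIF1A differed by 0.09, 0.06, 0.14 and −0.01, and LDHA by −0.04, −0.03, 0.03 and −0.01. The response to TNFα itself was compared between constructs by an interaction term. For H133W 0 of 38 genes passed (2 at an unadjusted p under 0.05; 0.0101% of all genes), and for SIRT6 0 of 38 (0 at an unadjusted p under 0.05; 0% of all genes). The difference in response between H133W and empty vector cells was −0.26 for EGLN3 (95% interval −0.53 to 0.02) and −0.51 for EPAS1 (−1.01 to −0.01), both at adjusted p = 0.567, and that of EPAS1 was −0.24 without H133W + TNFα replicate 3. The comparisons with empty vector share its arrays, as do those with and without TNFα in 1 kind of cell.

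**Figure D4:**
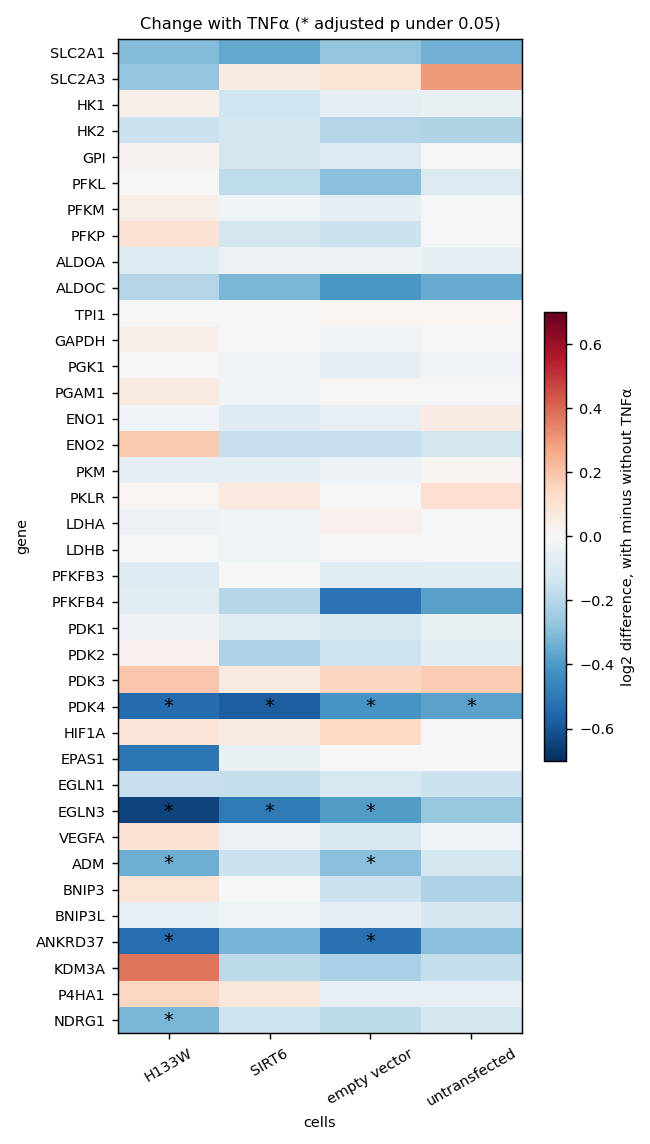
Change of each of the 38 genes with TNFα in H133W, SIRT6, empty vector and untransfected cells, as the difference of mean log2 values with minus without TNFα (blue lower, red higher); asterisks mark an adjusted p under 0.05. Asterisks stand only on falls: PDK4 in 4 columns, EGLN3 in 3, ADM and ANKRD37 in 2 and NDRG1 in 1.

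None of the 38 genes passed for transfection as such. In empty vector against untransfected cells 0 of 38 passed without TNFα (6 at an unadjusted p under 0.05), where 0.0607% of all genes passed with the fold threshold and 0.228% at any fold. With TNFα it was 0 of 38 (3 at an unadjusted p under 0.05), against 0.0303% and 0.0455%. The largest differences without TNFα were those of PKLR at 0.36 (adjusted p = 0.162), VEGFA at 0.34 (adjusted p = 0.179) and ANKRD37 at 0.32 (adjusted p = 0.144).

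Among 95 measured genes of the same pathways outside the set, chosen with earlier results known, a few passed the fold threshold with TNFα. Of all genes 1.42%, 1.28%, 1.25% and 1.18% passed it in H133W, SIRT6, empty vector and untransfected cells. VLDLR, a lipoprotein receptor induced by hypoxia, read 6.08, 6.11 and 6.15 in empty vector cells with TNFα and 7.08, 7.16 and 6.89 without, a fall of −0.93 (adjusted p = 1.08e-06). It fell by −0.86 in SIRT6 and −0.71 in untransfected cells, and by −0.53 in H133W cells, below the fold threshold. Without H133W + TNFα replicate 3 the fall in H133W cells was −0.597 (adjusted p = 0.00064), over the fold threshold. Of 36 other hypoxia-inducible genes, BHLHE41, a clock repressor, passed with it in SIRT6 (−0.59) and H133W cells (−0.59), and HMOX1, heme oxygenase 1, in H133W cells (−0.64). Both also lay lower with TNFα in the other kinds of cell, by less than 1.5-fold. In empty vector cells the changes were −0.47 for BHLHE41 and −0.55 for HMOX1, and that of HMOX1 was −0.50 without empty vector replicate 2 (adjusted p = 0.0683). In untransfected cells HMOX1 read 6.08, 6.00 and 6.20 with TNFα and 6.24, 6.14 and 6.51 without, which overlapped. Of 21 other genes of glycolysis and glucose transport, SLC2A6, a transporter known from activated macrophages, rose in all 4, by 0.56 in H133W, 0.70 in SIRT6, 0.57 in empty vector and 0.69 in untransfected cells (adjusted p = 0.00887, 0.0012, 0.00898 and 0.0016), over 1.5-fold in SIRT6 and untransfected cells. PCK1, the gate of gluconeogenesis, fell by −0.78 in H133W, −0.86 in SIRT6 and −0.94 in untransfected cells, at log2 levels of 2.68 to 4.45. Its change in empty vector cells was −0.65, and −0.58 without empty vector replicate 2 (adjusted p = 0.297). Of 17 components of the HIF pathway none passed the fold threshold in any of the 4, while CITED2, which competes with HIF1α for p300, fell by −0.57, −0.49, −0.53 and −0.56 in H133W, SIRT6, empty vector and untransfected cells (adjusted p = 0.000125, 0.000727, 0.00028 and 0.000128).

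Between H133W and empty vector cells the same lists gave 1 call of 95 without TNFα and 2 of 95 with it, where 0.865% and 1.72% of all genes passed. LOXL2, a collagen-crosslinking oxidase, was lower by −0.59 without TNFα (adjusted p = 0.029), and by −0.47 without empty vector replicate 2 (adjusted p = 0.164). With TNFα STC2, stanniocalcin 2, was higher by 0.71 (adjusted p = 0.000464), with 10.70, 10.63 and 11.19 in H133W cells and 10.08, 10.09 and 10.23 in empty vector cells, and replicate 3 the highest. CA12, a carbonic anhydrase, was lower by −0.59 with TNFα (adjusted p = 8.62e-05), with 7.11, 7.08 and 6.96 in H133W cells and 7.63, 7.61 and 7.70 in empty vector cells. Without H133W + TNFα replicate 3 the differences of STC2 and CA12 were 0.53 and −0.55, under 1.5-fold (adjusted p = 0.000656 and 0.000514). HMOX1 was higher at both, by 0.57 and 0.47 (adjusted p = 0.00708 and 0.0184), the one with TNFα being 0.32 without that array (adjusted p = 0.0912), and DDIT4, an inhibitor of mTORC1 induced by hypoxia and stress, by 0.51 with TNFα (adjusted p = 0.000187), all under 1.5-fold. Between wild type SIRT6 and empty vector cells the 95 genes differed by −0.28 to 0.27 without TNFα and by −0.25 to 0.34 with it, and did not pass.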

How the data were processed

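Expression was measured in HEK293 cells on 24 Affymetrix HG-U133 Plus 2.0 arrays, 3 biological replicates of each of 8 conditions. ArrayStudio was used by the authors for RMA, and the deposited log2 values span 1.52 to 13.75 over 54675 probe sets, with array medians of 5.3 to 5.38. The values were used as deposited. RMA gives no detection call, and the number of arrays limits the precision.

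Gene names came from the platform table, updated by Entrez identifier: 41097 probe sets stood for a single gene, 1801 for several and 11777 for none. The 40 genes, their roles, the other lists and the tests were chosen with earlier results of these data known.

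All 24 arrays entered 1 linear model in limma 3.58.1 (R 4.3.3), with a mean for each condition and 16 residual and 3.47 prior degrees of freedom. Comparisons were contrasts, with p values adjusted by Benjamini-Hochberg over all probe sets. A call needed a 1.5-fold change besides an adjusted p under 0.05, as in the study's methods. Shares over all genes use 1 probe set for each of 19775 genes. Genes with an adjusted p under 0.05 in any comparison were described array by array, others by role with up to 3 examples of largest change; LDHA, PDK1, SLC2A1 and HIF1A, and probe sets of HK2, and of the other pathway genes CITED2, HMOX1 and DDIT4 below the fold threshold, were added after their values were seen. The fit was tested on simulated data. Promoter sequences are from RefSeq (GRCh38.p14). Alternatives are given in the closing section.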

Additional observations from a re-analysis of the deposited data

How the results depend on the processing

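Counts are of the 38 genes called at an adjusted p under 0.05 and over 1.5-fold. Without the fold threshold they were 5, 2, 4 and 1 for TNFα in H133W, SIRT6, empty vector and untransfected cells (1, 0, 0 and 0 with it), 5 for H133W against empty vector with TNFα (3), and 2 and 1 for H133W against SIRT6 without and with TNFα (1 and 0). With array weights they were 1 for TNFα in SIRT6 cells, 0 for TNFα in H133W cells, 1 for H133W against empty vector with TNFα and 1 for H133W against SIRT6 with TNFα, and the last was also 1 (ALDOC) without the 3 arrays of lowest weight. In fits on the 6 arrays of the comparison alone they were 0 for TNFα in H133W cells, 1 for H133W against empty vector, 0 for the same with TNFα and 0 for H133W against SIRT6. With array medians subtracted, H133W against empty vector gave 1, since PKLR lay just under the fold threshold. With the second highest probe set of each gene TNFα in H133W cells gave 0 and H133W against empty vector with TNFα gave 1 (HK2, lower), and the sign turned for PKLR in H133W against empty vector (−0.13) and against SIRT6 (−0.0737), for ANKRD37 with TNFα in H133W cells (0.0442) and for KDM3A in H133W against empty vector with TNFα (−0.26); the cause was not tested. With 1 array left out in turn the counts ranged from 0 to 1 for TNFα in empty vector cells (PFKFB4 without empty vector replicate 1), 0 to 1 for TNFα in SIRT6 cells, 0 to 4 for TNFα in H133W cells, 1 to 2 for H133W against empty vector, 1 (without empty vector + TNFα replicate 1) to 4 (without H133W + TNFα replicate 1) for the same with TNFα, 0 for each array for H133W against SIRT6 and 0 to 1 for the same with TNFα. Over all alternatives 209 of these counts kept within 1.5 times the value reported and 39 did not, and of the changes of single genes 278 kept direction and side of the threshold, 80 no longer passed and 4 turned. The 209 include counts that were 0 and stayed 0, which say nothing of how steady the calls are.

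The labels do not say whether the replicate numbers pair the arrays. Same-numbered arrays of different conditions had a median correlation of deviations of 0.00934 (−0.477 to 0.415). For arrays of other numbers it was 0.00497 (−0.459 to 0.544). These values show no pairing but cannot exclude one. With the replicate number as a block the counts were 1 for TNFα in H133W cells, 2 and 3 for H133W against empty vector without and with TNFα, 1 for H133W against SIRT6 and 0 in the other comparisons, so that no count moved, and VEGFA in H133W against empty vector no longer passed (0.40, adjusted p = 0.0611).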

Other observations

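Among the 52 further probe sets of the 38 genes, some passed where the main probe set of the gene did not, and are given as values chosen after they were seen. PGK1, phosphoglycerate kinase, had a probe set (1558365_at) that read 7.56, 7.27 and 7.31 in H133W cells and 7.96, 7.62 and 7.91 in empty vector cells (−0.45, adjusted p = 0.045), and its difference with TNFα was −0.44 (adjusted p = 0.0377). A PDK3 probe set (221957_at) read 7.40, 7.53 and 7.44 in H133W cells and 7.71, 7.92 and 7.91 in empty vector cells (−0.39, adjusted p = 0.0316). A BNIP3 probe set (201848_s_at) was lower by −0.35 in H133W than in empty vector cells with TNFα (adjusted p = 0.0474). A PKM probe set (213700_s_at) read 8.17, 7.99 and 8.23 in empty vector cells and 7.38, 7.66 and 7.72 in untransfected cells (0.54, adjusted p = 0.0454), where the main probe set of PKM was not called.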
